A study of Mus musculus and synthetic construct with 9 samples.

Results

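The values below describe 10 SNPs at 8 type 2 diabetes (T2D) regions that are named for genes of insulin secretion by pancreatic β cells, measured as 20 of the 13628 sequences of a massively parallel reporter assay (MPRA). They were rs3802177 and rs4300038 in the SLC30A8 region, rs76846759 at ADCY5, rs2215383 at DGKB, rs7163757 at C2CD4A and C2CD4B, rs10811660 and rs10811661 at CDKN2A and CDKN2B, rs7903146 at TCF7L2, rs1635852 at JAZF1 and rs10428126 at IGF2BP2, each as a reference and an alternate allele. The SNPs were selected on their loci and on activity, allelic effect and response to thapsigargin (Tg) in these same libraries, so those values are given as a description and carry no p-value, and "called" below is a label that the fit over the whole table gave. In the assay, 200 bp of human sequence stood before a minimal promoter on a plasmid that carried GFP with a 20 bp barcode, and the barcodes were counted in the plasmid pool and in RNA. The plasmids were transfected into MIN6 cells, a mouse insulinoma β cell line, so each human sequence was read by mouse factors and outside its chromosome. RNA came from standard culture, which had no treatment, from cells given 250 nM Tg in 0.025% DMSO from 6 h after transfection, and from cells given 0.025% DMSO alone for the same time. All cells were harvested at 30 h. Each condition had 5 RNA libraries and 5 plasmid libraries of its batch, and DMSO and Tg shared their plasmid libraries.

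Several genes of these regions act in β cells. SLC30A8 encodes the transporter that loads zinc into insulin granules, ADCY5 an adenylyl cyclase that makes cAMP, and DGKB a kinase that removes the second messenger diacylglycerol. CDKN2A and CDKN2B encode inhibitors of cyclin-dependent kinases, TCF7L2 a transcription factor of the Wnt pathway, JAZF1 a zinc finger protein, and IGF2BP2 an RNA-binding protein, while C2CD4A and C2CD4B encode small nuclear proteins. Tg blocks the pump that fills the endoplasmic reticulum (ER) with calcium and is a standard way to bring about ER stress. A reporter assay measures what a sequence does to its own promoter, and which gene a SNP acts on is not measured.

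Sequence around the variable base was at hand for 3 of the SNPs, and it is shown because the first pair lies so close together that each tested sequence spans both sites. The runs are from the plus strand of hg19, 5′ to 3′, and the capital marks the SNP. The CDKN2A/B pair was read from chr9:22134051-22134074 and chr9:22134082-22134106, and the SNP of IGF2BP2 from chr3:185520329-185520353.
rs10811660 reference: gcgttcttgccctgtcaGcagctc
rs10811660 alternate: gcgttcttgccctgtcaAcagctc
rs10811661 reference: gctttagttttcTcatgacagtaag
rs10811661 alternate: gctttagttttcCcatgacagtaag
rs10428126 reference: caagttgaaataaTttgttgaattc
rs10428126 alternate: caagttgaaataaCttgttgaattc

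Activity is given as log2 of RNA over plasmid counts after scaling, and 0 is near the level of the median sequence. That median was -0.0093, -0.018 and -0.012 in standard culture, DMSO and Tg. A value of 0 is not an equal share of RNA and plasmid counts, and folds over plasmid below are on this scale. A sequence was called active when RNA was above plasmid at an FDR of 1%. Of the 20 sequences, 8 were active in standard culture, where 18.6% of all tested sequences were. In DMSO 11 were active, where 19.8% of all were, and in Tg 7 were active, where 12.8% of all were. At least 1 allele was active for 7 SNPs without treatment, 9 with DMSO and 5 with Tg, where 23.2%, 24.1% and 16.3% of all SNPs had one, and 4 SNPs had an active allele in every condition, rs4300038, rs2215383, rs76846759 and rs3802177. Only 4 of the sequences were far above their plasmid in every library. These were both alleles of rs4300038, the reference allele of rs2215383 and the alternate allele of rs76846759, and they were also the only ones of the 20 called active when libraries were scaled by total counts. With that scaling the median of all sequences moved by -0.82 under standard culture, -0.72 under DMSO and -0.81 under Tg, which put each of the other active sequences below its plasmid. Activities under about 1 below are therefore relative to the scaling, and differences between alleles within a library hardly depend on it.

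The SLC30A8 region held the most active of the 20 sequences. Rs4300038 is a G to A change at position 118217915 of chromosome 8 (hg19). In standard culture its reference allele was at 9.43, 9.43, 9.61, 9.54 and 9.57, a mean of 9.52 ± 0.08 (SD, n = 5) or 732 times the plasmid. The 5 values lay within 0.2 of each other, and the RNA of this sequence made up 3.93% of all RNA counts there. Behind them were a mean of 2694 plasmid counts and 1014810 RNA counts per library. The alternate allele was at 8.65, 8.75, 8.93, 8.73 and 8.89, and every one of these lay below every reference value. Among 13430 sequences tested the reference ranked 4 and the alternate 12, and both held these ranks in DMSO and in Tg as well.

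The alternate minus reference difference of rs4300038 was -0.72 ± 0.07 (SD, n = 5) in standard culture, with library values of -0.78, -0.68, -0.67, -0.81 and -0.68. In DMSO it was -0.94 ± 0.05, from -0.98, -1.004, -0.90, -0.89 and -0.92. In Tg it was -0.72 ± 0.03, from -0.72, -0.76, -0.74, -0.71 and -0.67. Activity was thus higher from the reference allele in all 15 libraries, by 1.65-fold, 1.92-fold and 1.65-fold under standard culture, DMSO and Tg, and the DMSO values lay below every Tg value. RNA of the alternate allele was higher in Tg than in DMSO by 0.40 ± 0.08 (log2, SE) and was called, with all 5 Tg libraries, at 8.54 to 8.84, above all 5 DMSO libraries, at 8.05 to 8.49. The reference allele was higher by 0.18 ± 0.08, its DMSO and Tg values overlapped, and it was not called. It was higher in Tg than in the DMSO library of the same number for all 5 numbers, and with the replicate number as a block it was called as well.

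Rs3802177, a G to A change in the 3′ UTR of SLC30A8 at position 118185025 of chromosome 8 (hg19), is the index SNP of the region and was far weaker. Its reference allele was active in each condition, at 0.12 ± 0.01, 0.27 ± 0.16 and 0.26 ± 0.16 under standard culture, DMSO and Tg (SD, n = 5 each). The call in Tg was lost in either sequencing run alone and without Tg libraries 1, 2 or 3. Its alternate allele was not called, with means of 0.06, -0.07 and 0.11. The allelic difference was -0.06 ± 0.05 without treatment, -0.34 ± 0.15 in DMSO and -0.16 ± 0.15 in Tg. Only the DMSO difference was called, from library values of -0.33, -0.59, -0.21, -0.25 and -0.34 that were all below 0. Neither allele was called in the comparison of Tg with DMSO, with changes of -0.0038 ± 0.08 for the reference and 0.19 ± 0.08 for the alternate allele (log2, SE).

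At ADCY5, rs76846759 (C to T, position 123158794 of chromosome 3, hg19) was active from its alternate allele alone. That allele was at 1.85, 1.83, 1.93, 1.91 and 2.00 without treatment, at 1.56, 1.49, 1.58, 1.53 and 1.56 in DMSO, and at 1.73, 1.82, 1.86, 1.90 and 1.88 in Tg. The means were 1.90 ± 0.07, 1.54 ± 0.04 and 1.84 ± 0.07 (SD, n = 5), which is 3.74, 2.91 and 3.57 times the plasmid. The reference allele stayed between -0.17 and 0.11 in all 15 libraries and was not called in any condition. The allelic difference was 1.91 ± 0.07 without treatment, 1.56 ± 0.09 in DMSO and 1.84 ± 0.10 in Tg, and the lowest of the 15 library values was 1.44. By size it ranked 6 of 6515 SNPs without treatment, 23 of 6501 with DMSO and 35 of 6501 with Tg. RNA of the alternate allele was higher in Tg by 0.30 ± 0.05 (log2, SE) and was called, with no overlap between DMSO and Tg libraries, while the reference allele moved by 0.02 ± 0.06.

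The size of the rs76846759 effect depended on the sequencing run. DMSO and Tg libraries were sequenced in 2 runs, whose counts are summed here. RNA of the alternate allele held 16088 counts in run 1 and 12040 in run 2 over the DMSO libraries, and 21107 and 15625 over the Tg libraries. Relative to the totals, run 1 was higher by 0.36 (log2) in DMSO and 0.37 in Tg, the largest such gap of the 12195 and 12228 sequences with at least 1000 counts. Every library showed it, from 0.29 to 0.43 in DMSO and from 0.36 to 0.38 in Tg. The plasmid counts of that allele differed by -0.03 between the runs, and RNA of the reference allele by -0.05 in DMSO and -0.01 in Tg. The allelic difference was 1.75 in run 1 and 1.33 in run 2 in DMSO, and 2.03 and 1.61 in Tg. It was above 1 in either run, and it was higher in Tg within either run. The part of the run in the summed values was not tested.

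At DGKB, rs2215383 (T to C, position 15062983 of chromosome 7, hg19, intergenic between DGKB and AGMO) had the largest allelic difference of all SNPs in each condition. The reference allele was at 3.48, 3.59, 3.68, 3.58 and 3.77 without treatment, at 4.06, 3.86, 4.05, 4.25 and 4.26 in DMSO, and at 4.10, 4.14, 4.32, 4.34 and 4.21 in Tg. The alternate allele was at -0.13, -0.02, -0.15, -0.04 and -0.04 without treatment, at 0.08, -0.34, -0.05, -0.01 and -0.02 in DMSO, and at -0.24, -0.36, -0.06, -0.40 and -0.49 in Tg. The reference sequence thus gave 12.3, 17.1 and 18.7 times its plasmid without treatment, with DMSO and with Tg, and the alternate sequence 0.947, 0.955 and 0.806 times. In Tg the alternate allele was called below its plasmid, as were 2.55% of all sequences. The raw counts carry the same contrast, with a mean of 1566 plasmid and 9912 RNA counts for the reference and 2407 and 1182 for the alternate allele in standard culture.

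The alternate minus reference difference of rs2215383 was -3.70 ± 0.11 without treatment, -4.16 ± 0.12 with DMSO and -4.53 ± 0.18 with Tg (SD, n = 5), or a fold of 13.0, 17.9 and 23.2 in favour of the reference. It ranked 1 of 6515, 6501 and 6501 SNPs by size. The spread of the plasmid libraries alone gave the difference an SE of 0.04 without treatment and 0.06 for DMSO and Tg. In Tg the library values were -4.34, -4.50, -4.39, -4.74 and -4.70, and each was further from 0 than every DMSO value, at -3.98, -4.20, -4.10, -4.26 and -4.28. Neither allele was called on its own in the comparison of Tg with DMSO, with changes of 0.13 ± 0.06 for the reference and -0.24 ± 0.10 for the alternate allele (log2, SE), which have opposite signs. Standard culture and DMSO were transfected with plasmid libraries of different batches, and the difference between those conditions was not tested.

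At C2CD4A and C2CD4B, rs7163757 (C to T, position 62391608 of chromosome 15, hg19, intergenic between the genes) had no active allele in standard culture or DMSO and 2 in Tg. The reference allele was between -0.09 and 0.08 in the standard culture libraries. In DMSO its 5 values lay below 0, down to -0.21, and in Tg they were 0.37, 0.32, 0.23, 0.32 and 0.22. The alternate allele was at 0.04, 0.16, 0.25, 0.04 and 0.06 in DMSO and at 0.79, 0.70, 0.55, 0.64 and 0.56 in Tg. No DMSO value of an allele reached its lowest Tg value. RNA was higher in Tg by 0.39 ± 0.05 for the reference and 0.55 ± 0.05 for the alternate allele (log2, SE), the largest increases of the 20 sequences except that the alternate allele of rs4300038, at 0.40, lay between them.

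With both alleles of rs7163757 active in Tg, its allelic difference there was called at 0.36 ± 0.04 (SD, n = 5), from 0.42, 0.38, 0.32, 0.32 and 0.34. In DMSO the difference was 0.20 ± 0.11, from 0.10, 0.32, 0.27, 0.24 and 0.06, and in standard culture it was 0.02 ± 0.04. These were not tested, since neither allele was active. The alternate allele was higher in all 10 libraries of DMSO and Tg. The Tg minus DMSO difference of the allelic effect was 0.16 ± 0.06 (SE) and was not called, so the larger value in Tg was not separated from the value in DMSO.

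At CDKN2A and CDKN2B, whose products hold back the cell cycle, rs10811660 (G to A, position 22134068 of chromosome 9) and rs10811661 (T to C, position 22134094) lie 26 bp apart between CDKN2B-AS1 and DMRTA1 (hg19). If each SNP stands at the same place in its sequence, the tested sequences share 174 of 200 bases, so they are not independent readings of the region. All of their activities were within 0.6 of 0. Rs10811660 was active from its reference allele, at 0.25, 0.22, 0.15, 0.11 and 0.03 in standard culture and 0.33, 0.53, 0.26, 0.37 and 0.38 in DMSO. In Tg that allele was at 0.17, 0.12, -0.02, 0.13 and -0.12 and was not called, while the alternate allele was not called in any condition, with means of -0.03, -0.0059 and -0.05. The allelic difference was -0.18 ± 0.18 without treatment, -0.38 ± 0.10 with DMSO and -0.11 ± 0.11 with Tg. The first was called, but 1 of its 5 libraries, at 0.09, lay on the other side of 0, and the call was lost by the methods' paired t-test, with the plasmid library of its own number, when every SNP was tested and without library 2, 3, 4 or 5. The DMSO difference was below 0 in every library, at -0.24, -0.49, -0.37, -0.36 and -0.45.

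Rs10811661, the index SNP of that region, had the alternate allele higher by 0.09 ± 0.05 without treatment, 0.12 ± 0.02 with DMSO and 0.23 ± 0.16 with Tg (SD, n = 5). The alternate allele was higher in all 15 libraries, and the difference was called in standard culture and DMSO and was not tested in Tg, where neither allele was active. In standard culture the alternate allele was active, at 0.21, 0.30, 0.07, 0.12 and -0.05. That call was lost with DESeq2, with all 6 library numbers and without library 2, 3 or 5. With all 6 numbers, or with 1 of these libraries left out, neither allele was active, and the allelic difference there was then not tested. With every SNP tested the allelic call was lost in standard culture and in DMSO, and the DMSO call was also lost in run 2 alone. The plasmid libraries alone gave the difference an SE of 0.02 in DMSO, above the SE of 0.0095 between its RNA libraries. In DMSO the reference allele was at 0.28, 0.49, 0.24, 0.07 and 0.26 and the alternate at 0.38, 0.59, 0.37, 0.22 and 0.36. In Tg the reference was at -0.20, -0.20, -0.37, -0.45 and -0.22 and the alternate at -0.16, -0.09, 0.02, -0.05 and -0.02. Both alleles thus lay above their plasmid in DMSO, and the reference was called below it in Tg. RNA was lower in Tg by -0.55 ± 0.09 for the reference and -0.44 ± 0.08 for the alternate allele (log2, SE), the largest decreases of the 20. The reference allele of rs10811660 was also lower and called, at -0.31 ± 0.07, a call lost in run 1 alone, without DMSO library 2 and without Tg library 5. Its alternate allele moved by -0.03 ± 0.09.

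The overlapping reference sequences can also be set beside each other, as a description with no test, since the level of each was among the values on which the SNPs were selected. The window around rs10811661 was less active than the window around rs10811660 by -0.11 ± 0.06 without treatment, -0.11 ± 0.11 with DMSO and -0.34 ± 0.17 with Tg (log2, SD, n = 5 libraries each), and it was lower in all 15 libraries. The plasmid libraries added an SE of 0.01 without treatment and 0.05 for DMSO and Tg. From DMSO to Tg the gap changed by -0.24.

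The SNPs at TCF7L2, JAZF1 and IGF2BP2 had small activities throughout, with library values between -0.34 and 0.38. Rs7903146 at TCF7L2 (C to T, position 114758349 of chromosome 10, hg19) had the deepest counts of the set in the DMSO and Tg batch, with a mean of 9299 plasmid counts for the reference and 10183 for the alternate allele. Its alternate allele was active in DMSO, at 0.19, 0.09, 0.21, 0.08 and 0.17, and its reference allele was not, at 0.01, 0.11, 0.01, -0.09 and 0.03. The allelic difference in DMSO was 0.13 ± 0.08 (SD, n = 5) and was called, although 1 library, at -0.01, stood apart from the other 4, at 0.14 to 0.19. The call was lost with every SNP tested and without DMSO library 1, 3 or 4. In Tg the difference was -0.00051 ± 0.11, with neither allele active. RNA of the alternate allele was lower in Tg by -0.22 ± 0.05 (log2, SE) and was called, its 5 Tg values all lying below its 5 DMSO values, and that call was lost without DMSO library 3. The reference allele changed by -0.08 ± 0.05.

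Rs1635852 in an intron of JAZF1 (T to C, position 28189411 of chromosome 7, hg19) was called active in DMSO alone, from the alternate allele at 0.17 ± 0.12 (SD, n = 5). In Tg that allele was at 0.20 ± 0.17 and was not called. The DMSO call was lost with DESeq2, in run 1 alone and without DMSO library 1, 2 or 3. Without Tg library 2 the same allele was called in Tg. The allelic difference was 0.05 ± 0.07 without treatment, 0.15 ± 0.10 with DMSO and 0.19 ± 0.19 with Tg. The DMSO difference, from 0.15, 0.13, 0.31, 0.04 and 0.10, was called, and was not called with the plasmid library of the same number, in run 2 alone or with every SNP tested. Where no allele was active in DMSO, as in run 1 alone and without DMSO library 1, 2 or 3, it was not tested. Its SE from the plasmid libraries, 0.06, was above that from the RNA libraries, 0.04. Neither allele was called in the comparison of Tg with DMSO, with changes of -0.0014 ± 0.07 and 0.04 ± 0.07 (log2, SE).

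Rs10428126 in an intron of IGF2BP2 (T to C, position 185520342 of chromosome 3, hg19) was active from its reference allele in standard culture and DMSO. That allele was at 0.09, 0.17, 0.15, 0.25 and 0.18 in standard culture and at 0.24, 0.09, 0.27, 0.14 and 0.20 in DMSO. The reference was higher in each of these 10 libraries, and the allelic difference was called in both conditions, at -0.15 ± 0.06 and -0.23 ± 0.12 (SD, n = 5). In Tg neither allele was active, and the difference was -0.22 ± 0.27, with library values of -0.35, 0.16, -0.38, -0.03 and -0.49 that crossed 0. The mean was thus near that of DMSO with a wider spread. Neither allele was called in the comparison of Tg with DMSO, at -0.08 ± 0.07 and -0.06 ± 0.08 (log2, SE).

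Across the 10 SNPs, the allelic difference was called at an FDR of 10% for 6 of the 7 tested in standard culture, where 40.9% of all tested SNPs were called. It was called for 9 of 9 in DMSO, where 43% of all were, and for 4 of 5 in Tg, where 35.8% of all were. The alternate allele was higher in 2, 4 and 2 of these calls, and 20.1%, 21% and 17.3% of all tested SNPs were such calls. Those shares are of all tested SNPs, called or not, and stand beside 40.9%, 43% and 35.8% called in either direction. The calls common to all 3 conditions were those of rs4300038, rs76846759 and rs2215383. The sign of the mean difference was the same in every condition for 9 of the 10 SNPs, and rs7903146, at nearly 0 in Tg, was the exception. The test took the plasmid counts as known, and the plasmid libraries of a batch are shared by all its RNA libraries. On simulated data it called more unchanged SNPs than its FDR of 10% allows. That simulation tested every SNP with enough plasmid counts, not only those with an active allele. "Called" is thus to be read as a looser label than the threshold states, by an amount not measured for these SNPs. With each RNA library set against its own number's plasmid library, 5 SNPs were called without treatment, 8 with DMSO and 4 with Tg, where 29.6%, 32.6% and 27% of all tested SNPs were. With every SNP tested, whether active or not, 4, 6 and 4 of the 10 were called, where 9.09%, 8.4% and 2.18% of all were.

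In the comparison of Tg with DMSO, 4 of the 20 sequences were called higher in Tg, where 2.04% of all were, and 4 were called lower, where 4.17% of all were, at an FDR of 1%. The higher ones were both alleles of rs7163757 and the alternate alleles of rs4300038 and rs76846759. The lower ones were both alleles of rs10811661, the reference allele of rs10811660 and the alternate allele of rs7903146. Alleles of a SNP share the rest of their sequence, and the sequences of rs10811660 and rs10811661 overlap, so these counts are not of independent readings. The DMSO and Tg values of these 8 sequences, and of no others among the 20, did not overlap, a separation that 7.89% of all sequences had. The median change of the 20 was -0.0026, beside 0.0087 over all sequences. The 12 sequences that were not called changed by -0.24 to 0.19.

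The allelic difference itself was called different between Tg and DMSO for 4 of the 10 SNPs at an FDR of 10%, where 3.83% of the 1670 SNPs tested, those with an active allele in DMSO or Tg, were. It was 0.22 ± 0.05 for rs4300038, 0.28 ± 0.07 for rs76846759, -0.37 ± 0.09 for rs2215383 and 0.28 ± 0.07 for rs10811660 (Tg minus DMSO, SE). For rs76846759 and rs2215383 the effect was larger in Tg, and for rs4300038 and rs10811660 it was smaller. The library values of the first 3 did not overlap, as for 4.43% of these 1670, and those of rs10811660 did. None of the 4 calls was kept with every SNP tested or without DMSO library 2 or 5. With the replicate number as a block only that of rs2215383 was. The plasmid library of the same number kept none either, but DMSO and Tg share these plasmid libraries. Their spread is then added to the difference while its mean hardly changes, so that setting cannot decide whether the effects differ. These 4 calls thus depend on the setting. For rs76846759 the change from DMSO to Tg was 0.27 in run 1 alone and 0.29 in run 2 alone. Its allelic difference within a condition moved more between the runs, as given above.

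For the region of DGKB the index SNP lay outside the part of the study's list at hand. Sequences near the 10 SNPs were read for the 65 further SNPs that this part lists under the 7 index SNPs of the other regions. At least 1 allele was active for 12 of them in standard culture, or 18.5%, beside 23.2% of all SNPs, and for 8 in DMSO and 8 in Tg, or 12.3%, beside 24.1% and 16.3%. An allelic difference was called for 7, 6 and 2 of those, beside 40.9%, 43% and 35.8% of all tested SNPs, and for 8 SNPs in at least 1 condition. A different allelic effect between Tg and DMSO could be tested by limma for 9 of them and was called for 0, with 0 at an unadjusted p under 0.05. Of their 129 tested sequences 10 were called higher in Tg and 0 lower, beside 2.04% and 4.17% of all sequences, by edgeR's quasi-likelihood test, where 1 was lower at an unadjusted p under 0.05, and DESeq2 also called 0 lower.

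Most of the 26 neighbours at IGF2BP2 had no active allele. One was found for 4 of them if untreated or given Tg, and for 3 if given DMSO alone. The neighbours named here were more active than rs10428126, the SNP of that locus described above. There, rs9854769 was at 7.33 ± 0.15 for the reference and 7.47 ± 0.16 for the alternate allele in standard culture (log2 RNA over plasmid, SD, n = 5), and rs7630554 at 5.72 ± 0.15 and 6.05 ± 0.15. Their allelic differences were small beside these levels, 0.14 ± 0.02 for rs9854769 and 0.32 ± 0.01 for rs7630554. That of rs7630554 was called in all 3 conditions, at 0.33 ± 0.02 in DMSO and 0.36 ± 0.04 in Tg. The third named SNP of the locus, rs35188816, was called in DMSO alone, at -0.19 ± 0.13. At C2CD4A and C2CD4B, rs4775466 had the reference allele higher in every condition, with differences of -0.52 ± 0.04, -0.38 ± 0.09 and -0.44 ± 0.08, all called. At JAZF1, rs849133 was called in standard culture and DMSO, at -0.27 ± 0.13 and -0.35 ± 0.10. At ADCY5, rs2332541 was called in the same conditions, at 0.17 ± 0.10 and 0.17 ± 0.11, well under the size at rs76846759. At CDKN2A and CDKN2B, rs10965246 was called in standard culture, at 0.16 ± 0.09. In the part of the list at hand, no other SNP under the index SNPs of SLC30A8 or TCF7L2 was called active in any condition. At TCF7L2, 3 sequences of the 2 other SNPs were tested for a change in Tg.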

How the data were processed

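The authors deposited counts, the sum of barcode reads per sequence and library made before their own normalization, with barcodes of more than 1 sequence discarded. Per the submitters' processing notes DESeq2 was used. The sources used here do not name the barcode counter. Positions are hg19, and the mouse genome at hand was not used. The paper's standard culture libraries (RNA 2 to 6, plasmid 1 to 5) were found by setting 882 column sets against mean counts of 1130 SNPs in a table held in part, where 1117 matched within 1e-05, with _A as the reference allele. RNA numbers 2, 4 and 6 of standard culture had 2 columns each, and the matched set held 1 of each (R2, R4* and R6*). The setting with all 6 library numbers summed both columns. Both runs of DMSO and Tg were summed by library. Per-sample columns left unread: 0. Totals were 19851799 to 44899256 for RNA and 23009482 to 36129587 for plasmid. Reads carry no molecular identifiers. The SDs run over RNA libraries of separate transfections, so they hold spread between cultures as well as counting error. They leave out the error of the plasmid counts, which is given apart where an SE of the plasmid libraries is named.

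Activity and Tg against DMSO used edgeR 4.0.16 (R 4.3.3, quasi-likelihood, TMM, robust) where plasmid counts averaged 10 or more. Allelic effects used limma 3.58.1 on alternate minus reference log2 RNA over mean plasmid, with a pseudocount of 1, for SNPs with an active allele. All fits covered the whole table, and the tools were tested on simulated data. SE beside Tg minus DMSO is the fit's. DESeq2 1.42.0 and the methods' paired t-test were alternatives. Replicates were transfections on separate days, as the methods state. The SNPs, the lists and the tests were chosen with earlier results of these data known. Every SNP of the rule is named, and of the neighbours those with a called allelic effect, at most 3 per index SNP, largest first.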

Additional observations from a re-analysis of the deposited data

Results flagged for a closer look

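In 2 of 93 sets of 5 libraries, 1 library stood apart from the other 4 by Dixon's test at the 95% level, where chance alone gives about 1 in 20. The reference allele of rs7903146 was at -0.10 in standard culture library 6, beside -0.01 to 0.02 in the others. The allelic difference of rs7903146 was -0.014 in DMSO library 2, beside 0.14 to 0.19 in the others.

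The allelic difference was called different between Tg and DMSO for rs4300038 by 0.22, for rs76846759 by 0.28, for rs2215383 by -0.37 and for rs10811660 by 0.28 (Tg minus DMSO, log2). These SNPs were selected with that contrast known.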

How the results depend on the processing

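Scaling by total counts left 4 sequences active under standard culture, 4 under DMSO and 4 under Tg, and 3 SNPs with an allelic effect in standard culture and 3 in DMSO, because fewer SNPs then had an active allele to test. It turned the sign of 14 called activities, to -0.69 (rs3802177 reference), -0.66 (rs10811660 reference), -0.68 (rs10811661 alternate) and -0.65 (rs10428126 reference) in standard culture. In DMSO they were -0.45, -0.35, -0.46, -0.34, -0.58, -0.55 and -0.54 for the rs3802177 reference, rs10811660 reference, rs10811661 reference and alternate, rs7903146 alternate, rs1635852 alternate and rs10428126 reference sequences. In Tg they were -0.55 for the rs3802177 reference and -0.52 and -0.16 for the rs7163757 reference and alternate sequences. The 4 SNPs whose allelic effect differed between Tg and DMSO became 1 with the replicate number as a block, 0 with the plasmid library of the same number and 0 with all SNPs tested. Over all SNPs, 64 became 10, 20 and 9. The second of these settings adds the spread of plasmid libraries that DMSO and Tg share, so it cannot decide whether the effects differ. Leaving out 1 library gave 0 to 3, with 3 without Tg library 1, 2 without Tg library 2, 3 or 4, 1 without Tg library 5 or DMSO library 1, 3 or 4, and 0 without DMSO library 2 or 5.

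The study calls the DMSO and Tg replicates paired, and the sources used here do not say whether the library numbers mark the pairs. Deviations from the group means correlated by 0.0059 to 0.06 for the same number, so the block was kept as an alternative. With the replicate block 5 sequences were higher in Tg, the added one being the rs4300038 reference, and 4 lower. Leaving out 1 library in turn gave 7 to 8, 10 to 11 and 6 to 7 active sequences in standard culture, DMSO and Tg, 4 to 6, 7 to 9 and 4 to 5 SNPs with an allelic effect, 4 sequences higher and 3 to 4 lower in Tg. Without library 2, 3 or 5 of standard culture 4 of its 6 allelic calls were left, and without library 4 there were 5. The window difference ran from -0.13 to -0.09 without treatment, -0.13 to -0.06 with DMSO and -0.40 to -0.29 with Tg, and its widening from -0.30 to -0.18. DESeq2, the plasmid minimums, the pseudocount of 10, all 6 library numbers and single runs kept the other counts within 1.5 times. The depth of 864 RNA counts or more per sequence and library on average leaves differences under about 0.1 open to the plasmid spread.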

Other observations

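RNA library number 1 of standard culture was not among the libraries of the paper and entered only the setting with all 6 library numbers. In it the allelic difference was -0.75 for rs4300038, 1.93 for rs76846759, -3.51 for rs2215383 and -0.23 for rs10811660 (log2, alternate minus reference), the sign of the mean of the 5 libraries in each case, although rs2215383 lay outside their range of -3.83 to -3.61. It was -0.02 for rs10811661 and 0.04 for rs10428126, outside the ranges of the 5 libraries, from 0.03 to 0.16 and from -0.22 to -0.08. It was also outside for rs1635852, at -0.10 beside -0.05 to 0.12, for rs7163757, at -0.05 beside -0.04 to 0.06, and for rs3802177, at 0.04, where the highest of the 5 was 0.0045. For rs7903146 it was 0.04 and within their range.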
